A study of Homo sapiens with 6 samples.

Results

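The aminoacyl-tRNA synthetases are the enzymes that join each amino acid to its tRNA. They were followed in MM1.S cells, a human multiple myeloma line, treated for 6 h with the DMSO vehicle, with 3 µM CCF642, an inhibitor of protein disulfide isomerase, or with 3 µM CCF642-34, an analogue of CCF642 made to be more selective for PDIA1. Each treatment had 2 libraries of oligo(dT)-enriched mRNA, all from this 1 cell line in RPMI-1640 with serum. The genes were taken by name, with earlier results of these data known, from 36 symbols in their older form (AARS rather than AARS1). Of these, 34 were among the 11048 genes listed in all 6 libraries: 19 of 20 cytosolic enzymes and 15 of 16 mitochondrial ones. VARS and VARS2, the valyl enzymes, were not matched under either symbol and were not analysed here.

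Human cells keep separate sets of synthetases for the cytosol, where most proteins including the endoplasmic reticulum's cargo are made, and for the mitochondrial matrix, where a few subunits of the respiratory chain are made. Both sets are encoded in the nucleus; the mitochondrial enzymes carry the suffix 2 in their symbols, and GARS and KARS each give rise to both a cytosolic and a mitochondrial form. In the integrated stress response, kinases that sense misfolded protein in the endoplasmic reticulum, amino acid shortage or other stresses phosphorylate eIF2alpha, overall protein synthesis slows, and the transcription factor ATF4 is made, which is known to bind many cytosolic synthetase genes.

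The values are CPM as deposited, that is, reads on a gene scaled to a common library total, and the libraries held 22989979 and 21403137 reads with DMSO, 20567313 and 22594137 with CCF642, and 28459677 and 27797578 with CCF642-34. The rarest enzyme, PARS2, still had at least 83 reads in every library. All 8 plasma cell markers were listed, from CD38 at 27.5 to 38.1 CPM to XBP1 at 1311 to 1391 CPM, whereas the 3 B cell and 2 monocyte markers were not. The plasma cell markers moved with the treatment: SDC1 fell (-1.67 ± 0.04 with CCF642 and -1.12 ± 0.04 with CCF642-34), as did TNFRSF17 (-1.06 ± 0.05 and -0.81 ± 0.05), and IRF4 rose (0.90 ± 0.04 and 1.11 ± 0.04), each at a limma adjusted p of at most 9.49e-18. MZB1 (-0.28 ± 0.04 and -0.19 ± 0.04) and CD38 (-0.23 ± 0.08 and -0.28 ± 0.08) also fell, and SLAMF7 rose (0.37 ± 0.04 and 0.31 ± 0.04). PRDM1 and XBP1 rose with CCF642 alone (0.32 ± 0.04 and 0.16 ± 0.03). These further changes had a limma adjusted p of at most 0.0156. Of all genes, 63.1% had one under 0.05 with CCF642 and 57.6% with CCF642-34. Of the markers of other cell types, CD3E lay between 2.09 and 3.19 CPM. HBB lay between 2.21 and 4.86 CPM and was higher with CCF642-34 than with DMSO (0.64 ± 0.19, limma adjusted p = 0.00374). COL1A1 was at 1.09 and 1.5 CPM with DMSO, 8.99 and 10.5 with CCF642 and 2.74 and 3.53 with CCF642-34. The part of all these marker changes in the results was not tested. Fold changes are log2 differences of TMM-scaled CPM plus a pseudocount of 1, given as value ± standard error with n = 2 libraries per group, and understate the change of genes with few reads. TMM divided the DMSO libraries by 1.05, those of CCF642 by 0.962 and 0.957 and those of CCF642-34 by 0.987 and 0.992, so a scaled value stands slightly higher with the compounds than the deposited CPM does. A gene is said to have risen or fallen at a limma adjusted p under 0.05, adjusted over all 11048 genes. The labels do not say that the 2 libraries of a group came from separate cultures. The p values therefore rest on spread between libraries, pooled mainly across genes, and that spread may be technical.

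To see how the 2 compartments behaved, the deposited CPM was summed over each set. The 19 cytosolic enzymes summed to 3568 and 3532 CPM with DMSO, 6263 and 6394 CPM with CCF642, and 6218 and 6292 CPM with CCF642-34. The 15 mitochondrial enzymes summed to 704 and 683 CPM with DMSO, 486 and 489 CPM with CCF642, and 538 and 534 CPM with CCF642-34. The cytosolic sum was thus higher in every treated library than in either DMSO library, at 1.78 times the DMSO mean with CCF642 and 1.76 times with CCF642-34, and the mitochondrial sum was lower in every treated library, at 0.703 and 0.773 times the DMSO mean. Together the 34 genes took 0.427% and 0.421% of the reads with DMSO and between 0.675% and 0.688% in the treated libraries. Because these are bulk samples, less RNA per cell and fewer cells with that RNA cannot be told apart.

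**Figure D1:**
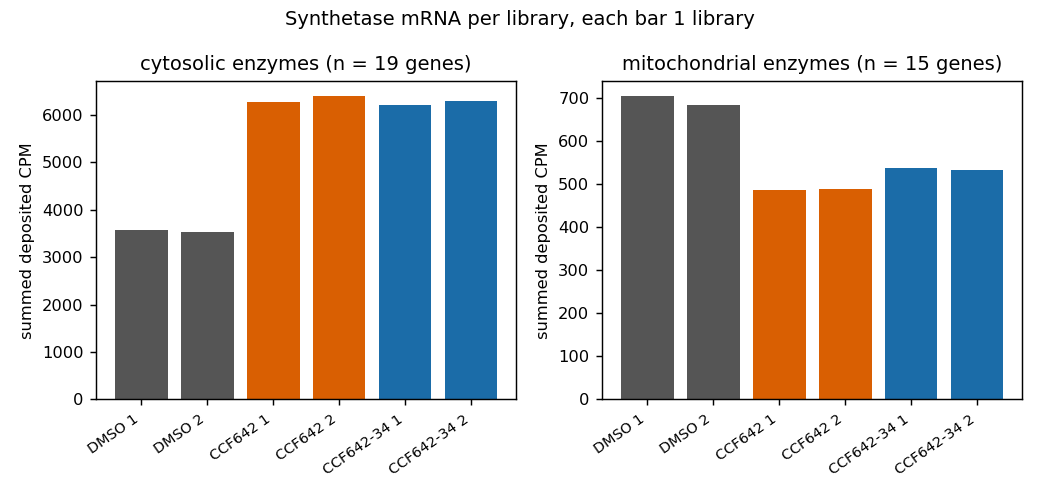
Deposited CPM summed over the 19 cytosolic (left) and the 15 mitochondrial (right) synthetase genes, 1 bar per library, on linear axes that start at 0 and differ in scale. The cytosolic bars stand at 3532 to 3568 CPM with DMSO and at 6218 to 6394 CPM with the compounds, and the mitochondrial bars at 683 to 704 CPM with DMSO and at 486 to 538 CPM with the compounds.

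Per kilobase of principal transcript in GENCODE release 29, the cytosolic enzymes were the more abundant set in untreated cells. The mean level with DMSO ran from 19.8 CPM per kb for WARS to 110.2 for EPRS, with a median of 55.0, whereas the mitochondrial enzymes ran from 3.54 for PARS2 to 47.2 for IARS2, with a median of 13.9. The ranges overlapped, since 4 mitochondrial enzymes lay above the lowest cytosolic one and 9 cytosolic enzymes lay below IARS2. With CCF642 the median level rose to 97.5 CPM per kb in the cytosolic set and stood at 11.1 in the mitochondrial set. With CCF642-34 the medians were 93.1 and 12.4 CPM per kb. GARS was the most abundant synthetase per kb with either compound, at 333 CPM per kb with CCF642 and 321 with CCF642-34.

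With CCF642, 13 of 19 cytosolic enzymes rose, 1 fell and 5 did neither, against 31.8% of all listed genes that rose and 31.3% that fell (63.1% together). Their median log2 fold change was 0.88, beside -0.01 over all genes. Of the 15 mitochondrial enzymes, 4 rose, 8 fell and 3 did neither, with a median of -0.30. With CCF642-34, 15 cytosolic enzymes rose, 2 fell and 2 did neither, against 29.7% and 27.9% of all genes (57.6% together), with a median of 0.79 beside 0.01 over all genes. The mitochondrial count was then 3 up, 8 down and 4 neither, with a median of -0.25. The increases numbered 4 with a replicate block, edgeR's quasi-likelihood test, limma-voom or a fit of only the 2 groups compared. They numbered 2 with scaling to library size alone. By the second criterion, at least 2-fold with an unadjusted p under 0.05, 8 cytosolic enzymes were higher with CCF642 and 7 with CCF642-34, against 4.5% and 2.59% of all genes (6.49% and 3.87% in either direction). MARS2 was the 1 mitochondrial enzyme past 2-fold, lower with both compounds, where 1.99% and 1.29% of all genes were lower. In deposited CPM, the libraries of CCF642 and DMSO did not overlap for 17 cytosolic and 12 mitochondrial enzymes, where 81.7% of all genes did not, and those of CCF642-34 and DMSO did not overlap for 19 and 14, where 79.3% did not. Both comparisons use the same DMSO libraries, so they are not independent of each other.

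The mitochondrial count of increases with CCF642 was the less firm one: it was 1 without DMSO replicate 2, 2 without CCF642 replicate 2 and 0 with scaling to library size alone, which gave 0 higher and 9 lower. The same scaling set the all-gene median at -0.13 for CCF642 and at -0.08 for CCF642-34. Under all 17 alternatives 12 of the 13 cytosolic increases with CCF642 and 12 of the 15 with CCF642-34 were still called, as were 7 of 8 and 5 of 8 of the mitochondrial decreases.

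**Figure D2:**
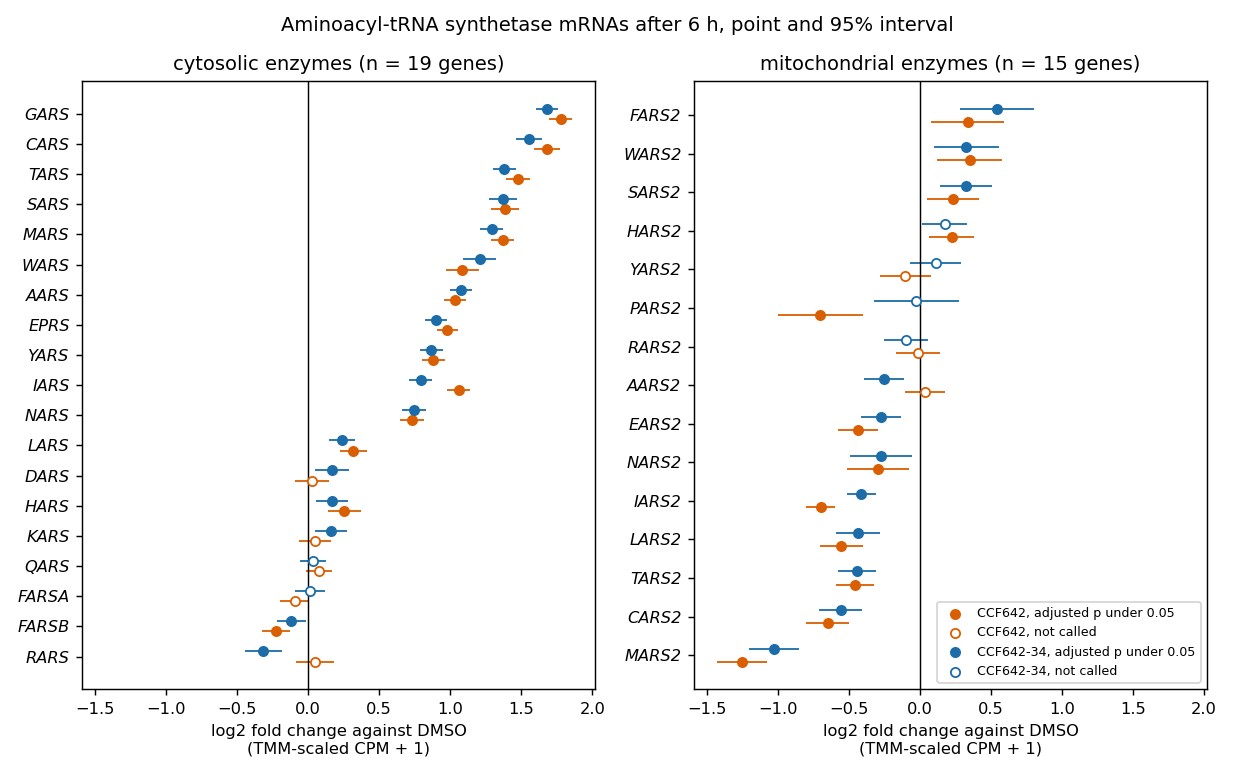
Log2 fold change against DMSO of each cytosolic (left) and mitochondrial (right) synthetase gene with CCF642 (orange) and CCF642-34 (blue), as the point and the 95% interval from 2 libraries per group, with variance shared across genes. Filled points have a limma adjusted p under 0.05 and open points do not. The cytosolic genes run up to GARS at 1.78 and 1.68, while most mitochondrial genes lie left of 0, down to MARS2 at -1.25 and -1.03.

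Among the cytosolic enzymes GARS, the glycyl enzyme that also serves mitochondria, changed the most. It was read at 279.5 and 280.0 CPM with DMSO, 836 and 918 CPM with CCF642, and 832 and 859 CPM with CCF642-34. The treated libraries were clear of the DMSO libraries with no overlap, and GARS rose by 1.78 ± 0.04 with CCF642 and 1.68 ± 0.04 with CCF642-34 (limma adjusted p = 6.46e-37 and 1.13e-35). KARS, the lysyl enzyme and the other gene that serves both compartments, was read at 111 and 109.8 CPM with DMSO, 97.0 and 111 CPM with CCF642, and 115 and 116 CPM with CCF642-34. Its values with CCF642 overlapped those with DMSO (0.05 ± 0.06, limma adjusted p = 0.478), and it rose slightly with CCF642-34 (0.16 ± 0.06, limma adjusted p = 0.0138), a call kept in 12 of 18 settings, the main one included. Without these 2 genes, 12 of 17 cytosolic enzymes rose with CCF642 and 13 of 17 with CCF642-34, with unchanged medians of 0.88 and 0.79. The shares of all genes that rose were 31.8% and 29.7%.

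CARS, which charges tRNA with cysteine, was read at 95.7 and 101 CPM with DMSO, 287 and 292 CPM with CCF642, and 274 and 273 CPM with CCF642-34. It rose by 1.68 ± 0.05 and 1.55 ± 0.05 with the 2 compounds in that order (limma adjusted p = 1.3e-33 and 5.65e-32). TARS, the threonyl enzyme, was read at 202 and 204 CPM with DMSO, 501 and 532 CPM with CCF642, and 491 and 505 CPM with CCF642-34. It rose by 1.48 ± 0.04 and 1.38 ± 0.04 (limma adjusted p = 2.95e-33 and 8.51e-32). In both genes every treated library was above both DMSO libraries, and the CCF642-34 libraries were close to the CCF642 libraries. SARS, the seryl enzyme, whose product also charges the selenocysteine tRNA with serine, was read at 76.5 and 73.8 CPM with DMSO, 179.8 and 181 CPM with CCF642, and 181 and 187 CPM with CCF642-34. It rose by 1.39 ± 0.05 and 1.37 ± 0.05 (limma adjusted p = 1.02e-28 and 2.88e-28), and the treated groups lay within 10 CPM of each other.

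MARS, the methionyl enzyme that also charges the initiator tRNA, was read at 236 and 241 CPM with DMSO, 550.2 and 575 CPM with CCF642, and 551 and 547 CPM with CCF642-34. It rose by 1.37 ± 0.04 and 1.29 ± 0.04 (limma adjusted p = 2.02e-32 and 3.8e-31), with all treated libraries above both DMSO libraries. Its exons share 355 bases with DDIT3, the gene of the stress factor CHOP, on the opposite strand, and 519 bases with ARHGAP9, likewise opposite. The 6 libraries of DDIT3 stood at 20.6 and 20.8 CPM with DMSO, 225 and 199 CPM with CCF642, and 203 and 205 CPM with CCF642-34. ARHGAP9 stood at 7.57 and 8.22 CPM with DMSO, 18.0 and 17.4 CPM with CCF642, and 15.6 and 16.5 CPM with CCF642-34, so both overlapping genes were higher in the treated libraries, like MARS. Whether the counting used strand is not stated, and the part of the shared bases in the values of MARS was not tested.

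WARS, the tryptophanyl enzyme, was read at 65.9 and 56.2 CPM with DMSO, 119 and 118 CPM with CCF642, and 135 and 132 CPM with CCF642-34. It rose by 1.09 ± 0.06 and 1.21 ± 0.06 (limma adjusted p = 1.53e-21 and 4.56e-23), and its 2 DMSO libraries were the farthest apart in relative terms among the genes that passed 2-fold. AARS, the alanyl enzyme, was read at 297 and 301 CPM with DMSO, 576 and 541 CPM with CCF642, and 602 and 583 CPM with CCF642-34. It rose by 1.03 ± 0.04 and 1.07 ± 0.04 (limma adjusted p = 2.06e-27 and 6.82e-28). Neither gene overlapped between treated and DMSO libraries. EPRS, which carries the glutamyl and the prolyl enzyme in 1 chain, was read at 562 and 543 CPM with DMSO, 975 and 1012 CPM with CCF642, and 946 and 993 CPM with CCF642-34. It rose by 0.98 ± 0.04 and 0.90 ± 0.04 (limma adjusted p = 1.46e-27 and 7.86e-26), just under 2-fold, from the highest untreated level per kb of all 34 genes.

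IARS, the isoleucyl enzyme, was read at 271 and 261 CPM with DMSO, 508 and 505 CPM with CCF642, and 424 and 443 CPM with CCF642-34. It rose by 1.06 ± 0.04 with CCF642 and by 0.79 ± 0.04 with CCF642-34 (limma adjusted p = 1.12e-27 and 2.26e-22), and the CCF642-34 libraries lay between the other 2 groups. YARS, the tyrosyl enzyme, rose by 0.88 ± 0.04 and 0.87 ± 0.04, and NARS, the asparaginyl enzyme, by 0.73 ± 0.04 and 0.74 ± 0.04, with limma adjusted p between 3.58e-24 and 1.06e-20. LARS, the leucyl enzyme known as a leucine sensor of mTORC1, rose by only 0.32 ± 0.05 and 0.24 ± 0.05 (limma adjusted p = 5.16e-08 and 1.59e-05). HARS, the histidyl enzyme, rose by 0.25 ± 0.06 and 0.17 ± 0.06 (limma adjusted p = 0.000141 and 0.0104), a call kept in 17 and 13 of 18 settings.

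The remaining cytosolic enzymes moved little. DARS, the aspartyl enzyme, rose with CCF642-34 (0.17 ± 0.06, limma adjusted p = 0.0127, kept in 13 of 18 settings), beside 0.03 ± 0.06 with CCF642, which was not called (limma adjusted p = 0.701). FARSB, the beta subunit of the phenylalanyl enzyme, fell with both compounds (-0.23 ± 0.05 and -0.12 ± 0.05, limma adjusted p = 0.000116 and 0.0368), the second call being kept in 13 of 18 settings and lost when any 1 of the 4 libraries compared was left out. FARSA, the alpha subunit of the same enzyme, passed in neither comparison (-0.10 ± 0.05 and 0.01 ± 0.05). Scaled to library size alone, it was called lower with CCF642 (-0.23, limma adjusted p = 0.000135), a call made in 2 of 18 settings. QARS, the glutaminyl enzyme, passed in neither as well and was read at 205 and 209 CPM with DMSO, 196 and 201 CPM with CCF642, and 204 and 194 CPM with CCF642-34. In deposited CPM its treated libraries were just below those of DMSO, and after scaling its fold changes were 0.07 ± 0.05 and 0.03 ± 0.05 (limma adjusted p = 0.152 and 0.574). RARS, the arginyl enzyme, was read at 65.8 and 62.7 CPM with DMSO, 57.9 and 63.5 CPM with CCF642, and 48.2 and 48.4 CPM with CCF642-34. It was not called with CCF642 (0.05 ± 0.07, limma adjusted p = 0.534) and fell with CCF642-34 (-0.32 ± 0.07, limma adjusted p = 6.11e-05), the CCF642-34 libraries being below all others. Scaled to library size alone, the CCF642 values of DARS, KARS, QARS and RARS and the CCF642-34 values of FARSA and QARS changed sign, none of them past the threshold.

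**Figure D3:**
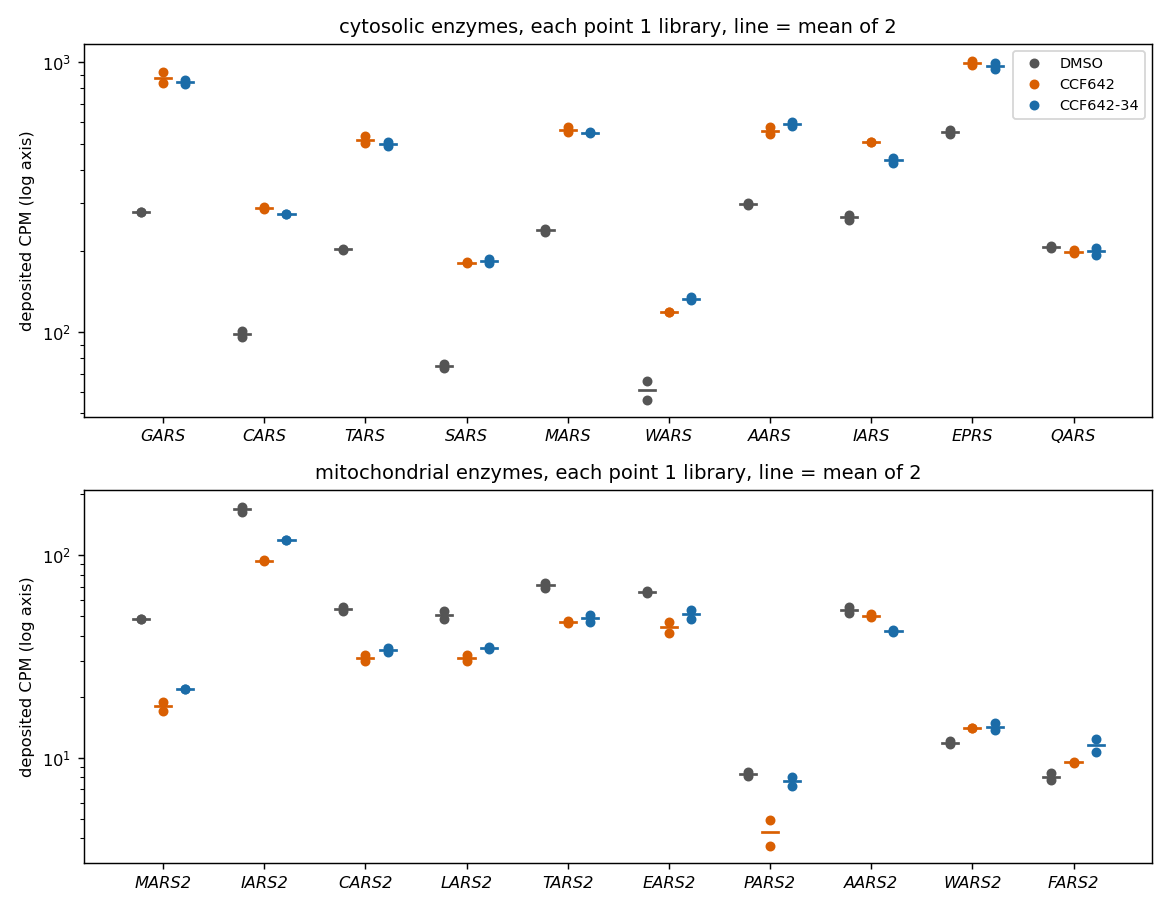
Deposited CPM on log axes for 10 cytosolic (top) and 10 mitochondrial (bottom) synthetase genes, each point 1 library and each line the mean of 2, with DMSO in grey, CCF642 in orange and CCF642-34 in blue. Apart from QARS, the cytosolic genes shown stand higher in every treated library than in either DMSO library, and MARS2 drops from 48.2 and 48.7 CPM to between 17.1 and 21.8 CPM.

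A list of cytosolic synthetase genes known as ATF4 targets was read by itself. Of the 12 cytosolic synthetase genes commonly described as targets of ATF4 (AARS, CARS, EPRS, GARS, IARS, LARS, MARS, NARS, SARS, TARS, WARS and YARS), 12 rose with each compound, the medians being 1.07 for CCF642 and 1.14 for CCF642-34, and all 12 kept both calls in every setting tried. Their summed level was 2751 and 2715 CPM with DMSO, 5525 and 5634 CPM with CCF642, and 5435 and 5513 CPM with CCF642-34. Of the other 7 cytosolic enzymes (DARS, FARSA, FARSB, HARS, KARS, QARS and RARS), 1 rose and 1 fell with CCF642, and 3 rose and 2 fell with CCF642-34, with medians of 0.05 and 0.03; over all genes, 31.8% rose and 31.3% fell with CCF642, and 29.7% and 27.9% with CCF642-34. They summed to 817 CPM in both DMSO libraries, 738 and 760 CPM with CCF642, and 783 and 779 CPM with CCF642-34. The list was compiled from general knowledge with earlier results of these data known, and the difference between the 2 groups of enzymes was not tested.

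In mammalian cells 8 of these enzyme genes (EPRS, IARS, LARS, QARS, MARS, KARS, RARS and DARS) encode the enzymes of the multi-synthetase complex. With CCF642 4 of the 8 rose and 0 fell, with a median of 0.20, whereas of the 11 enzymes outside the complex 9 rose and 1 fell, with a median of 1.03. With CCF642-34 6 of the 8 rose and 1, RARS, fell, with a median of 0.20, beside 9 up, 1 down and a median of 1.07 outside the complex. The shares of all genes that rose and fell were 31.8% and 31.3% with CCF642 and 29.7% and 27.9% with CCF642-34, and the difference between enzymes inside and outside the complex was not tested. Scaffold proteins hold the complex together. AIMP1 was not called with either compound (-0.0064 ± 0.06 and 0.11 ± 0.06), nor was EEF1E1 (-0.11 ± 0.15 and -0.13 ± 0.15), whereas AIMP2 was called higher with CCF642-34 and not with CCF642 (0.05 ± 0.09 with CCF642 and 0.25 ± 0.09 with CCF642-34, limma adjusted p = 0.634 and 0.014). The direct difference between the compounds in AIMP2 was 0.20 ± 0.09 (limma adjusted p = 0.0775).

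Synthetases also divide into 2 structural classes by the fold of their catalytic site. EPRS, which holds an enzyme of each class, was counted in class I only. Of 9 cytosolic class I enzymes 7 rose and 0 fell with CCF642, and 7 rose and 1 fell with CCF642-34, with medians of 0.98 and 0.87. Of 10 class II enzymes, 6 rose and 1 fell with CCF642, and 8 rose and 1 fell with CCF642-34, with medians of 0.49 and 0.46. Both classes thus held strongly raised and little changed enzymes. Among the mitochondrial enzymes, 1 of 8 in class I rose and 5 fell with each compound, and in class II 3 of 7 rose and 3 fell with CCF642, and 2 rose and 3 fell with CCF642-34. Over all genes, 31.8% rose and 31.3% fell with CCF642, and 29.7% rose and 27.9% fell with CCF642-34, and the difference between the classes was not tested.

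Because ATF4 acts with C/EBP partners at composite sites, the RefSeq promoter windows (GRCh38.p14, 250 bases before to 50 after each start) were searched on both strands for the C/EBP-ATF response element core TGATGNAA, 1 motif with no other searched. A window was given for 16 of 19 cytosolic and 14 of 15 mitochondrial enzymes, all but DARS, LARS, YARS and AARS2. The motif was found for 7 of 16 cytosolic enzymes (43.8%) and 1 of 14 mitochondrial ones (7.14%), beside 2.75% of 9130 listed genes, 4.46% of 27305 genes with a window and 3.62% of 35116 windows of this length. For 6 of the 7 cytosolic genes the match was TGATGCAA or its reverse complement TTGCATCA, which was in 0.778% of listed genes. The match of AARS, which lay at -187, is not printed. These are the 30 bases around the match in the other 6 of the 7 cytosolic genes and in YARS2, on the strand of the gene, with the match in capitals, shown to set these sites side by side:

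CARS, chr11:3057407-3057436, minus strand: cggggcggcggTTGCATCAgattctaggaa
GARS, chr7:30594834-30594863, plus strand: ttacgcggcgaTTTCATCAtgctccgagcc
IARS, chr9:92293692-92293721, minus strand: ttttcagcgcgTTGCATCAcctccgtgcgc
MARS, chr12:57488053-57488082, plus strand: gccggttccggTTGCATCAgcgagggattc
NARS, chr18:57621804-57621833, minus strand: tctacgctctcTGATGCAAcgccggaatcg
TARS, chr5:33440956-33440985, plus strand: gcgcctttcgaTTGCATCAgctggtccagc
YARS2, chr12:32756076-32756105, minus strand: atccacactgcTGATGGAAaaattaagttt

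Counted from the annotated start, the first base of the match lay at -2 in CARS, -4 in MARS, -13 in IARS, -33 in GARS, 3 in TARS and 15 in NARS, all close to the start, and at -187 in AARS. CARS, GARS and TARS have 2 annotated windows, and the match was in 1 of them. All 7 of these genes rose with both compounds, by 0.73 (NARS) to 1.78 (GARS) with CCF642. EPRS, SARS, WARS and HARS also rose with both and had no match in their windows, which says only that these letters are not there. YARS2, the mitochondrial tyrosyl enzyme with a match at -197, passed in neither comparison (-0.10 ± 0.09 and 0.11 ± 0.09, limma adjusted p = 0.318 and 0.297). A match is a description of the sequence, and binding was not measured here.

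The mitochondrial enzymes were led by MARS2, the mitochondrial methionyl enzyme, which was read at 48.2 and 48.7 CPM with DMSO, 18.9 and 17.1 CPM with CCF642, and 21.8 and 21.8 CPM with CCF642-34. It fell with both compounds (-1.25 ± 0.09 and -1.03 ± 0.09, limma adjusted p = 2.36e-17 and 2.78e-14), past the 2-fold limit, and no treated library came near the DMSO libraries. IARS2, the mitochondrial isoleucyl enzyme and the most abundant of the set, was read at 173 and 164 CPM with DMSO, 93.1 and 94.7 CPM with CCF642, and 119 and 118 CPM with CCF642-34. It fell by 0.70 and 0.41 on the log2 scale (SE 0.05 each, limma adjusted p = 9.33e-17 and 1.42e-09), with the CCF642-34 libraries between the other groups.

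CARS2, the mitochondrial cysteinyl enzyme, was read at 52.9 and 55.2 CPM with DMSO, 32.0 and 30.01 CPM with CCF642, and 34.9 and 33.4 CPM with CCF642-34 (-0.65 ± 0.08 and -0.56 ± 0.08, limma adjusted p = 2.43e-10 and 1.58e-08). LARS2, the leucyl enzyme, was read at 52.8 and 48.5 CPM with DMSO, 30.2 and 32.1 CPM with CCF642, and 34.5 and 35.3 CPM with CCF642-34 (-0.55 ± 0.08 and -0.43 ± 0.08, limma adjusted p = 1.92e-08 and 3.6e-06). Both fell with each compound without overlap. TARS2, the threonyl enzyme, was read at 72.8 and 69.1 CPM with DMSO, 46.2 and 47.2 CPM with CCF642, and 50.8 and 46.8 CPM with CCF642-34 (-0.46 ± 0.07 and -0.44 ± 0.07, limma adjusted p = 6.3e-08 and 1.84e-07). EARS2, the glutamyl enzyme, was read at 65.2 and 66.4 CPM with DMSO, 41.5 and 46.6 CPM with CCF642, and 53.5 and 48.5 CPM with CCF642-34 (-0.44 ± 0.07 and -0.27 ± 0.07, limma adjusted p = 4.7e-07 and 0.000825). In these genes too every treated library was below both DMSO libraries. NARS2, the asparaginyl enzyme, fell less (-0.30 ± 0.11 and -0.28 ± 0.11, limma adjusted p = 0.0145 and 0.0255), and its calls were kept in 15 and 13 of 18 settings.

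Both PARS2 and AARS2 were called lower with 1 compound. PARS2, the prolyl enzyme, was read at 8.48 and 8.13 CPM with DMSO, 4.96 and 3.67 CPM with CCF642, and 8.08 and 7.23 CPM with CCF642-34. It fell with CCF642 (-0.70 ± 0.15, limma adjusted p = 6.51e-05), and its value with CCF642-34 was -0.03 ± 0.15 (limma adjusted p = 0.895). AARS2, the alanyl enzyme, was read at 51.9 and 55.4 CPM with DMSO, 51.0 and 49.3 CPM with CCF642, and 41.7 and 42.5 CPM with CCF642-34. Its value with CCF642 was 0.04 ± 0.07 (limma adjusted p = 0.669; -0.10 and not called when scaled to library size alone), and it fell with CCF642-34 (-0.25 ± 0.07, limma adjusted p = 0.00155). The direct comparison of the compounds in both genes is given further on.

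A few mitochondrial enzymes went up by small amounts, FARS2 and WARS2 from low levels. FARS2, the mitochondrial phenylalanyl enzyme, was read at 8.39 and 7.76 CPM with DMSO, 9.48 and 9.56 CPM with CCF642, and 10.7 and 12.3 CPM with CCF642-34 and rose with both compounds (0.33 ± 0.13 and 0.54 ± 0.13, limma adjusted p = 0.0214 and 0.000321), the first call being kept in 13 of 18 settings and the second in all 18. WARS2, the tryptophanyl enzyme, was read at 11.7 and 12.1 CPM with DMSO, 14.1 and 14.03 CPM with CCF642, and 14.8 and 13.7 CPM with CCF642-34 (0.35 ± 0.11 and 0.33 ± 0.11, limma adjusted p = 0.00639 and 0.0124, kept in 17 and 15 of 18 settings). SARS2, the seryl enzyme, was read at 28.8 and 24.1 CPM with DMSO, 26.4 and 30.4 CPM with CCF642, and 29.3 and 33.3 CPM with CCF642-34 (0.23 ± 0.09 and 0.32 ± 0.09, limma adjusted p = 0.0259 and 0.00235, kept in 13 and 15 of 18 settings). Its deposited CPM overlapped between CCF642 and DMSO, and its exons share 1492 bases on the same strand with AC011455.2, so that its counts are uncertain. HARS2, the histidyl enzyme, rose with CCF642 (0.22 ± 0.08, limma adjusted p = 0.0131, kept in 14 of 18 settings), although one CCF642 library was below both DMSO libraries in deposited CPM, and was at 0.18 ± 0.08 with CCF642-34 (limma adjusted p = 0.0545). RARS2, the arginyl enzyme, passed in neither comparison (-0.02 ± 0.08 and -0.10 ± 0.08), like YARS2. Scaled to library size alone, YARS2 was called lower with CCF642 (-0.23, limma adjusted p = 0.0203) and RARS2 with CCF642-34 (-0.19, limma adjusted p = 0.0333).

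Pairing the enzymes for the same amino acid set the 2 compartments side by side. There were 16 pairs, in which EPRS stands against both EARS2 and PARS2, and FARSA and FARSB both stand against FARS2. The cytosolic fold change was above the mitochondrial one in 14 pairs with CCF642 and in 12 with CCF642-34, with a median gap of 1.01 and 0.97 on the log2 scale. In 8 pairs with each compound the cytosolic gene rose and the mitochondrial gene fell, and with CCF642 both pairs of EPRS were among them. Single genes of the whole list rose in 31.8% and fell in 31.3% of cases with CCF642, and in 29.7% and 27.9% with CCF642-34. The gap was largest for methionine, at 2.62 and 2.32 between MARS and MARS2. It was next largest for cysteine, at 2.33 and 2.11 between CARS and CARS2, and for threonine, at 1.94 and 1.82 between TARS and TARS2. Isoleucine had a gap of 1.76 with CCF642 and 1.20 with CCF642-34.

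Phenylalanine, arginine and histidine did not follow the others. For phenylalanine the order was turned, since FARSB fell and FARS2 rose with both compounds, a gap of -0.56 and -0.66. For arginine RARS and RARS2 differed by 0.06 with CCF642 and -0.22 with CCF642-34. For histidine the gap was 0.03 and -0.01. HARS and HARS2 are neighbours on chromosome 5 that are transcribed away from each other: their RefSeq starts lie 85 bases apart, their promoter windows share 184 bases, and their exons in GENCODE share 437 bases on opposite strands, so that reads there cannot be told apart without strand. The 84 bases between the starts (chr5:140691371-140691454, plus strand, GRCh38.p14, 59.5% G and C) lie in both promoter windows and are shown here, without a match to the motif above:

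HARS and HARS2: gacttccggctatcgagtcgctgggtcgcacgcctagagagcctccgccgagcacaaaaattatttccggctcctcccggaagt

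**Figure D4:**
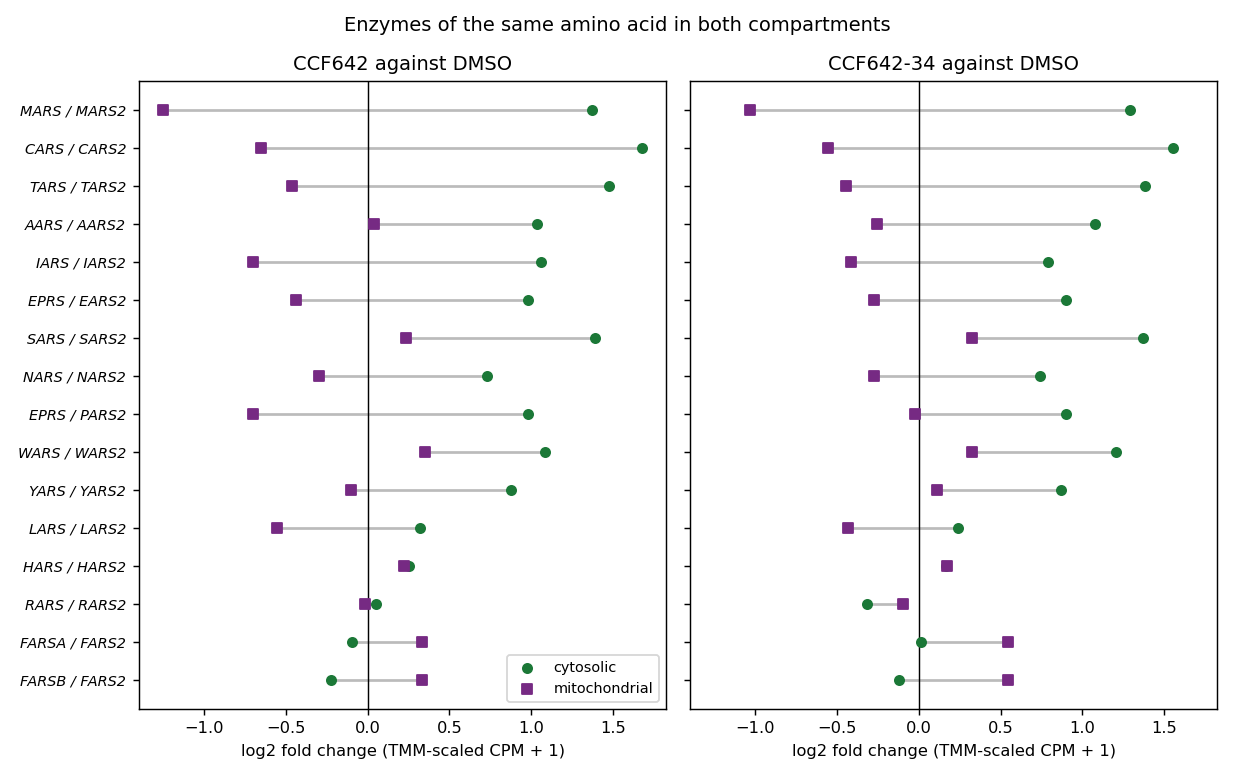
Log2 fold change against DMSO of the cytosolic (green circle) and mitochondrial (purple square) synthetase for the same amino acid, 1 row per pair joined by a grey line, with CCF642 (left) and CCF642-34 (right). The circle lies right of the square in 14 of 16 pairs with CCF642 and 12 of 16 with CCF642-34, with the widest gap for MARS and MARS2, while the FARSA and FARSB rows are turned round.

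To ask whether the 2 compounds differed, CCF642-34 was compared with CCF642 directly at the same dose and time, 1 pair of compounds, with p values adjusted over all genes. Of the 19 cytosolic enzymes 0 were higher and 3 lower with CCF642-34, and of the 15 mitochondrial enzymes 3 were higher and 1 lower, against 15.9% of all genes that were higher and 17.4% that were lower. The medians were -0.04 for the cytosolic and 0.09 for the mitochondrial enzymes, beside 0.01 over all genes, and 0 synthetases differed by 2-fold, as did 0.308% of all genes (0.00905% higher and 0.299% lower). In deposited CPM 11 cytosolic and 10 mitochondrial enzymes did not overlap between the compounds, where 65.1% of all genes did not. The cytosolic count was not firm, since it moved when either CCF642 library was left out. With library size as the only scaling 5 were higher and 2 lower, which turned the cytosolic median to 0.001. By the DESeq2 size factors 5 were lower.

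RARS was lower with CCF642-34 than with CCF642 by -0.37 ± 0.07 (limma adjusted p = 2.06e-05), and IARS by -0.27 ± 0.04 (limma adjusted p = 5.7e-07). In both genes the CCF642-34 libraries lay below the CCF642 libraries without overlap. CARS differed by -0.12 ± 0.05 (limma adjusted p = 0.0303), a call kept in 13 of 18 settings. The settings that lost it included those without CCF642 replicate 2 or without either CCF642-34 library. Scaling to library size alone lost it as well (-0.08, limma adjusted p = 0.167). For the 16 cytosolic enzymes not called, the 95% intervals of the difference lay between -0.20 (HARS) and 0.26 (DARS). GARS, at -0.10 ± 0.04 (limma adjusted p = 0.061), and TARS, at -0.10 ± 0.04 (limma adjusted p = 0.0606), were among them.

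Among the mitochondrial enzymes PARS2 was higher with CCF642-34 than with CCF642 by 0.68 ± 0.15 (limma adjusted p = 0.000358), from at least 83 reads with CCF642. IARS2 was higher by 0.29 ± 0.05 (limma adjusted p = 1.41e-05). AARS2 was lower by -0.29 ± 0.07 (limma adjusted p = 0.000869). The calls of PARS2 and AARS2 were kept in 17 of 18 settings and that of IARS2 in all 18. MARS2 was higher by 0.22 ± 0.09 (limma adjusted p = 0.044), which was kept in 7 of 18 settings and lost when any library but CCF642 replicate 1 was left out. For the 11 mitochondrial enzymes not called, the 95% intervals lay between -0.25 (WARS2) and 0.47 (FARS2).

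**Figure D5:**
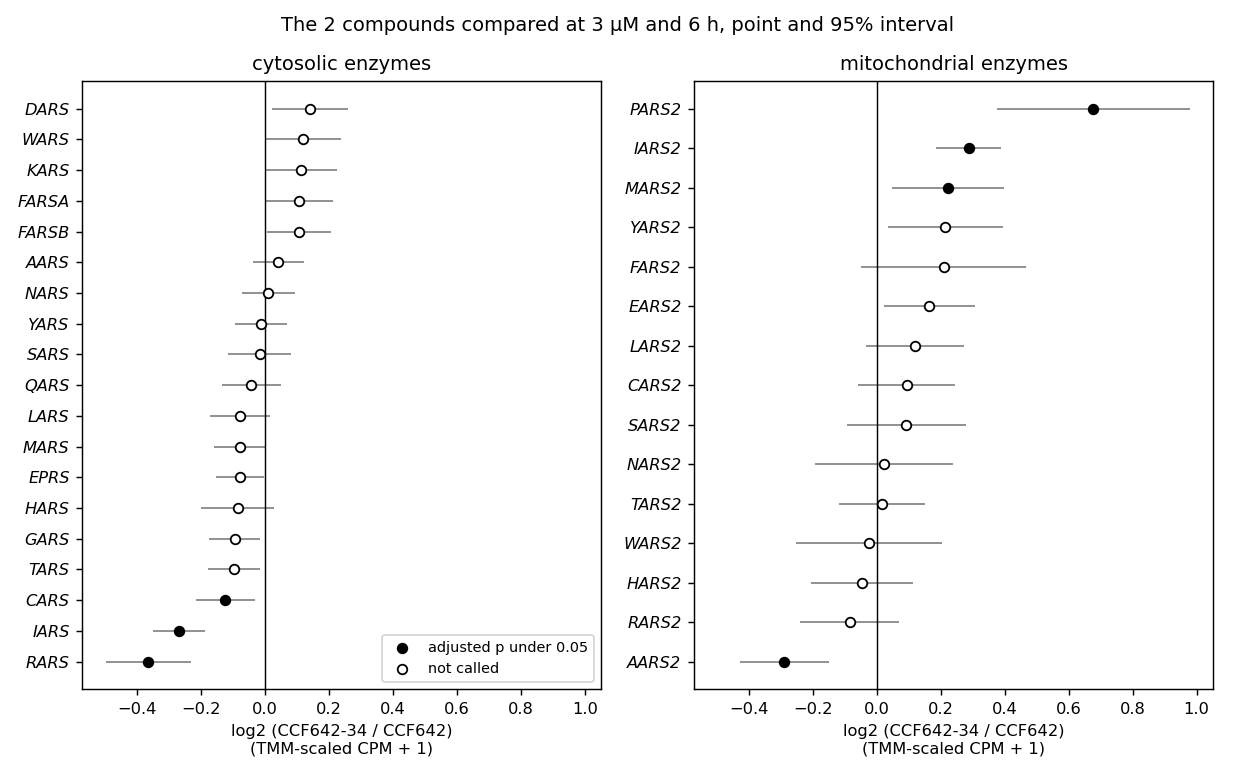
Log2 ratio of CCF642-34 to CCF642, both at 3 µM for 6 h, for each cytosolic (left) and mitochondrial (right) synthetase gene, as the point and the 95% interval from 2 libraries per group, with variance shared across genes. Filled points have a limma adjusted p under 0.05. Most intervals lie near or across 0, with RARS (-0.37), IARS (-0.27) and AARS2 (-0.29) to the left and PARS2 (0.68) and IARS2 (0.29) to the right.

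Further genes of tRNA charging and delivery were read for context, of which 26 of 28 names were matched. With CCF642 7 rose and 6 fell, and with CCF642-34 9 rose and 6 fell, with medians of -0.06 and 0.10. Of all genes, 31.8% rose and 31.3% fell with CCF642 and 29.7% rose and 27.9% fell with CCF642-34. XPOT, the exportin that carries tRNA out of the nucleus, was read at 273 and 274 CPM with DMSO, 514 and 523 CPM with CCF642, and 528 and 555 CPM with CCF642-34 and rose with both compounds (1.06 ± 0.04 and 1.07 ± 0.04, limma adjusted p = 7.6e-28 and 6.18e-28), the 1 gene of this list past 2-fold. PSTK, the kinase that prepares the seryl group on the selenocysteine tRNA, rose by 0.46 ± 0.14 and 0.39 ± 0.14 (limma adjusted p = 0.00309 and 0.0133). QRSL1, a subunit of the amidotransferase that makes glutaminyl-tRNA in mitochondria, rose with CCF642-34 (0.36 ± 0.08, limma adjusted p = 0.000219) and was at 0.11 ± 0.08 with CCF642.

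The list's decreases included MTFMT, which formylates the mitochondrial initiator tRNA (-0.69 ± 0.13 and -0.37 ± 0.13, limma adjusted p = 1.14e-05 and 0.0125). TARSL2, a second cytosolic threonyl enzyme and a close relative of TARS, fell by -0.42 ± 0.09 and -0.33 ± 0.09 (limma adjusted p = 4.36e-05 and 0.00104), whereas TARS rose in the same libraries.

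The genes differ in how cleanly their reads can be assigned. In GENCODE release 29, 19 of the 34 enzymes share exon bases with another gene, and 9 share them with a listed gene on the opposite strand. HARS2 also shares 152 exon bases with ZMAT2, a listed gene on the same strand, where strand would not tell the reads apart. The partners that follow are those on the opposite strand. Partners whose log2 fold changes against DMSO had the same sign as those of the enzyme were, beside DDIT3 and ARHGAP9 with MARS and HARS with HARS2, WDR25 with WARS (0.05 with CCF642 and 0.72 with CCF642-34), ING1 with CARS2 (-0.09 and -0.35), TERF2IP with KARS (0.50 and 0.45) and WDR55 with HARS (0.25 and 0.10). Partners of the opposite sign were S100PBP with YARS (-0.47 and -0.38), UBFD1 with EARS2 (0.20 and 0.14) and MRPS12 with SARS2 (-0.09 and -0.01). These signs are given without regard to a call, and the part of the partners in the values of the enzymes was not tested. Annotated pseudogenes bear the names of AARS, CARS, FARSB, GARS, KARS, NARS, RARS, WARS, IARS2, TARS2 and WARS2, and how their reads were treated is not given in the sources used here.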

How the data were processed

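MM1.S cells were treated for 6 h and 6 libraries were sequenced, 2 per group. The authors deposited CPM values per gene symbol, which are not counts. The submitters' processing notes name STAR, edgeR 3.24.3, limma 3.38.3 and hg19; their order, the annotation and any use of strand are not given in the sources used here. Whole reads were recovered from 100% of the CPM values (within 0.01 read) and gave the library totals and the TMM factors (edgeR 4.0.16, R 4.3.3). A table of the whole series with the same values was not used.

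The 3 groups were fitted together with limma 3.58.1 (trend, no replicate block, two-sided, Benjamini-Hochberg over 11048 genes) on log2 of TMM-scaled CPM plus 1, with 3 residual degrees of freedom and a prior of 42.9. The procedure was also run on simulated reads, and the outcome is not given here. The 17 alternatives were pseudocounts of 0.1 and 4, scaling by library size or by DESeq2's size factors, a mean of at least 5 CPM, a replicate block, edgeR's quasi-likelihood test, limma-voom, the Wald test of DESeq2 1.42.0, fits of only the 2 groups compared, a gene-wise linear model and fits without each library.

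The genes and lists were chosen with earlier results of these data known. Per-library values were given, in each compartment, for the 8 largest changes against DMSO with either compound and the 4 largest between the compounds at an adjusted p under 0.05, for GARS and KARS, and for QARS, which was added after its values were seen; of the further charging genes the 3 largest increases and decreases with CCF642-34 were named, apart from 1 that is not reported here. The list of ATF4 targets, the complex and the classes came from general knowledge. Gene positions, transcript lengths and exon overlaps came from GENCODE release 29 (GRCh38), and promoters from RefSeq (GRCh38.p14); neither was joined to coordinates of the files, which hold none. The standard errors rest mainly on variance shared across genes, and for the rarest enzymes counting error adds to them.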

Additional observations from a re-analysis of the deposited data

How the results depend on the processing

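Over the 39 called values of single enzymes that the rule names, the 17 alternatives kept the call 637 times, lost it 26 times and reversed the direction 0 times; values that were not called did change sign, as given above, and the causes of these moves were not tested. Scaling to library size alone shifted all genes, as given above, and gave with CCF642 2 cytosolic decreases and a cytosolic median of 0.75, 0 mitochondrial increases and a mitochondrial median of -0.42; with CCF642-34 medians of 0.70 and -0.34; and between the compounds 5 cytosolic and 5 mitochondrial enzymes higher and medians of 0.0013 and 0.14. The mitochondrial increases with CCF642 numbered 2 by the DESeq2 Wald test and 1 by the gene-wise linear model, and the mitochondrial median was -0.25 with a pseudocount of 4. The gene-wise model, which shares no variance across genes, called 1 cytosolic decrease with CCF642-34 and, between the compounds, 1 cytosolic and 0 mitochondrial enzymes lower. The cytosolic enzymes lower with CCF642-34 than with CCF642 numbered 5 with DESeq2's size factors and with limma-voom.

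Leaving out each library in turn, with the lone library of a group assumed to vary like the others, gave 1 to 2 cytosolic decreases and 1 to 4 mitochondrial increases with CCF642; 1 to 2 cytosolic decreases and a mitochondrial median of -0.26 to -0.20 with CCF642-34; and, between the compounds, 0 to 2 cytosolic enzymes higher, 2 to 7 lower and a mitochondrial median of 0.079 to 0.16. Each of the DMSO and CCF642-34 libraries, left out singly, took the cytosolic decreases with CCF642-34 to 1. The fit with a replicate block took the mitochondrial increases with CCF642-34 from 3 to 4 and left the other counts of calls by compartment as they were; the medians, such as 0.88 for the cytosolic enzymes with CCF642, were the same by construction. Libraries that share a number did not deviate together (correlations of -0.01, -0.06 and 0.05 across genes), so the numbers were not taken to pair the samples. With 2 libraries per group, small changes of the rarer mitochondrial enzymes are at the limit of what these data resolve.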
